A study of Mus musculus with 9 samples.

Results

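The miR-297, miR-466, miR-467 and miR-669 miRNAs of the mouse are the subject here. They are often named together as the miRNA cluster of the Sfmbt2 gene. Members were the probe rows, controls left out, whose miRNA name starts with one of these 4 names, 61 of the 1881 miRNAs on the array design. By sub-family they were 3 miR-297, 23 miR-466, 12 miR-467 and 23 miR-669 miRNAs. Their signals came from 9 one-colour Agilent arrays of osteoblastic cells, grown from the bone marrow of male C57BL/6 mice aged 8 weeks. After 7 days of culture the marrow cells spent 7 more days in an osteoblast differentiation medium of β-glycerol phosphate, ascorbic acid 2-phosphate and dexamethasone. The groups are 3 arrays at 0 Gy and 3 arrays each of cells given alpha particles, at 0.5 Gy or at 1 Gy, delivered at 0.22 Gy per minute. All groups share strain, sex, age and culture, and no other agent or allele is named. No label ties an array to an animal or a culture, so the spread between arrays, on which all p-values rest, may be technical.

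Sfmbt2 is an imprinted Polycomb gene that is active from the paternal copy in the placenta. One of its introns carries long tandem copies of short miRNA genes in the mouse, and the cluster is known for its role in the placenta. Many of the mature miRNAs are rich in alternating purine and pyrimidine bases, and several have relatives of the same name at other places in the genome. A mature miRNA binds target mRNAs mainly through its seed, bases 2 to 8 from its 5′ end.

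Most members lie inside Sfmbt2, but 4 of the detected ones have their gene on another chromosome. Matched by name, 60 of the 61 members had a miRNA gene in the RefSeq gene table. For 49 of them every gene copy lay inside the bounds of Sfmbt2 on chromosome 2, among 72 miRNA genes there. Another 8 had their gene on another chromosome, and 3 had copies inside and outside. Of the 49 miRNAs inside, 2 were detected on any array (4.08%), against 23.7% of all 1881 miRNAs. That 23.7% includes 145 miRNAs detected only on 2 arrays of high background, described below, where no member was detected alone. Of the 8 outside, 4 were detected (50%), and of the 3 with copies in both places 1 was. The 2 detected members inside Sfmbt2 were miR-466h-3p and miR-669p-3p. The 4 outside were miR-466i-5p and miR-466i-3p, both from 1 gene on chromosome 13, miR-467f from chromosome 11 and miR-466q from chromosome 3. Of these, miR-466i-3p was detected on 1 array only. miR-466f-3p has 4 gene copies and was the detected member with copies in both places. The table gives gene bounds and not introns, and the members are therefore called here by their names.

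Mature sequences were taken from RefSeq (build GRCm38.p6), which gave 7 of the 61 members, all of them from outside Sfmbt2. They are shown so that detected and undetected members can be compared. Capitals mark the seed. The first 3 were detected and the next 4 were not, on any array.
miR-467f: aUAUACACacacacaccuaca
miR-466q: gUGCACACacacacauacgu
miR-466i-3p: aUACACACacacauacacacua
miR-467g: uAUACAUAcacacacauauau
miR-466k: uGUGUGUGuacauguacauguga
miR-466j: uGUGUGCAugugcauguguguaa
miR-669n: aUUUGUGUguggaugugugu
The 7 members had 7 different seeds. miR-467f and miR-466q hold a run of 12 alternating A and C bases, miR-466i-3p one of 11 and miR-467g one of 9. miR-466k, miR-669n and miR-466j hold alternating U and G bases, in runs of 9, 8 and 7. The nearest pairs among the members were miR-467f with miR-466i-3p and miR-467f with miR-467g, each 5 edits (substitutions, insertions or deletions) apart, and of these miR-467g alone was not detected. miR-466i-5p, miR-466h-3p, miR-669p-3p and miR-466f-3p were not among the 7.

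A run of at least 4 UG, GU, AC or CA dinucleotides was present in 6 of these 7 members (85.7%). It was present in 7 of the other 1601 array miRNAs with a RefSeq sequence (0.437%). Among these repeat-bearing miRNAs of other families, 3 were detected, and their sequences follow for comparison, with the seed again in capitals.
miR-574-5p: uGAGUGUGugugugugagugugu
miR-1187: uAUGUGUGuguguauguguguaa
miR-3082-5p: gACAGAGUgugugugucugugu
Their longest runs of alternating U and G are 13, 11 and 10 bases. miR-1187 lies 4 edits from miR-466j, which was not detected. Of the 13 repeat-bearing miRNAs, the 6 with a longest run of at least 10 bases were each detected, on 1 to 8 arrays. The 7 with a longest run of 8 or 9 bases were detected on none. The limit of 10 bases was set after the values were seen, so this split is a description with no test. It covers only miRNAs with a RefSeq sequence, and so neither the members inside Sfmbt2 nor miR-466i-5p. Probes for such similar sequences may bind each other's miRNAs, and this was not tested.

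The arrays differed in background, which sets what can be said of dim members. Array 1 of 0.5 Gy had an additive error of 19.4 in the scanner output, array 1 of 1 Gy one of 11.2, and the other 7, called here the arrays of low background, 1.60 to 2.83. Detection required at least 50% of the spots of at least 1 probe to be marked well above background. The lowest detected miRNA signal was 7.18 and 6.09 (log2) on the 2 arrays of high background and 3.52 to 3.65 on the others. Between 144 and 234 miRNAs were detected per array. Of 10 stromal and osteoblastic marker miRNAs 6 were detected, on 5 to 9 arrays each, with miR-125b-5p on all 9. The myeloid markers were detected for 2 of 7, miR-223-3p on 5 arrays and miR-342-3p on 4, and the erythroid markers for 0 of 4. Of 6 markers of trophoblast and early embryo 1 was detected, miR-294-3p on 1 array, the 0.5 Gy array of high background.

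Of the 61 members 7 were detected on at least 1 array, against 23.7% of all 1881 miRNAs. By sub-family these were 5 of 23 miR-466, 1 of 12 miR-467, 1 of 23 miR-669 and 0 of 3 miR-297 miRNAs. By arm they were 4 of 26 with a 3p name, 1 of 25 with a 5p name and 2 of 10 with no arm in the name. The 0 Gy arrays detected 5, 7 and 6 members, the 0.5 Gy arrays 1, 5 and 6, and the 1 Gy arrays 1, 6 and 5. At 0 Gy, arrays 1 and 3 detected 8.2% and 9.84% of the members, against 12.4% and 9.84% of all miRNAs. Array 2 of 0 Gy detected a larger share of the members than of all miRNAs (8.35%). Arrays 2 and 3 of 0.5 Gy gave 8.2% and 9.84%, against 9.2% and 10.4%. Arrays 2 and 3 of 1 Gy gave 9.84% and 8.2%, against 11.9% and 9.46%. On array 1 of 0.5 Gy and of 1 Gy the members' share (1.64%) was below that of all miRNAs. The single member found on both arrays of high background was miR-466i-5p. Those 2 arrays detected 216 and 144 miRNAs in all. No member was detected on these 2 arrays alone, whereas 145 miRNAs of the whole array were. By dose, 7 members were detected on any array of 0 Gy, 6 of 0.5 Gy and 6 of 1 Gy, against 14.8%, 20.4% and 17.5% of all miRNAs. The member seen at 0 Gy only was miR-466i-3p, on 1 array. This difference was not tested.

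**Figure D1:**
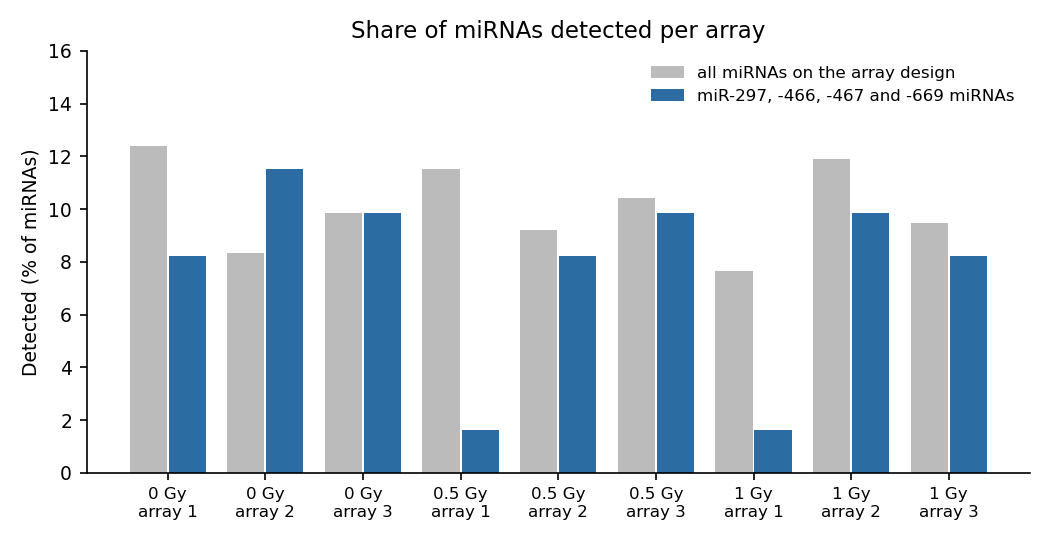
Share of miRNAs detected on each array (percent), for the 61 members (blue) and all 1881 miRNAs on the design (grey), by dose and array number. Array 1 of 0.5 Gy and of 1 Gy detected 1 of the 61 members each (1.64%), and the other arrays 5 to 7.

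Detected members took a small share of the signal. Of the summed signal of all detected miRNAs they made up 0.638%, 2.27% and 1.62% on arrays 1, 2 and 3 of 0 Gy. The shares were 0.309%, 1.49% and 1.85% for 0.5 Gy, and 0.762%, 0.98% and 1.23% for 1 Gy, so the doses overlapped. The 0.309% and 0.762% come from the arrays of high background, where miR-466i-5p was the 1 member detected and counted. In a bulk culture fewer cells of a type and less miRNA per cell cannot be told apart.

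miR-466i-5p, the 5p product of a miR-466 gene on chromosome 13, gave the strongest signal of the members. On the log2 scale it read 9.32, 8.62 and 8.22 on arrays 1, 2 and 3 of 0 Gy, 8.16, 8.40 and 8.27 on those of 0.5 Gy, and 8.39, 8.45 and 8.20 on those of 1 Gy. Array 1 of 0 Gy stood above the rest and the other 8 arrays lay within 8.16 to 8.62, so the doses overlapped. Both of its probes had 100% of their spots well above background on all 9 arrays. Of all members only miR-466i-5p was detected on the arrays of high background.

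miR-467f is a single-copy relative from chromosome 11. It read 5.11, 6.03 and 5.80 at 0 Gy, 5.47 and 6.12 on arrays 2 and 3 of 0.5 Gy, and 5.08 and 5.27 on arrays 2 and 3 of 1 Gy. On the arrays of high background it read 6.41 (0.5 Gy) and 6.22 (1 Gy) without being detected. These 2 undetected readings were above all 7 detected ones.

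miR-466h-3p, whose gene lies between Mir466g and Mir297a-3 inside Sfmbt2, had readings close to those of miR-467f. It read 5.08, 5.79 and 5.56 at 0 Gy, 5.27 and 5.95 on arrays 2 and 3 of 0.5 Gy, and 4.75 and 5.15 on arrays 2 and 3 of 1 Gy. It was not detected on array 1 of 0.5 Gy (5.93) or of 1 Gy (5.87). The neighbouring miR-466g, miR-297a-3p and its own 5p arm were detected on no array.

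miR-669p-3p comes from 2 gene copies inside Sfmbt2, each set between a miR-466b and a miR-467a gene. It read 5.11, 6.06 and 5.88 at 0 Gy, 5.56 and 6.28 on arrays 2 and 3 of 0.5 Gy, and 4.93 and 5.15 on arrays 2 and 3 of 1 Gy. It lay at the floor of 3.52 on array 1 of 0.5 Gy and at 4.69, undetected, on array 1 of 1 Gy. The 4 probes of miR-669p-3p were detected on 7, 6, 4 and 3 arrays. On array 3 of 1 Gy its detection rested on 1 probe, with 50% of spots well above background, the lowest share that counts. The miR-466b and miR-467a miRNAs on the array were not detected on any array.

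miR-466q, from chromosome 3, was the dimmest of the 5 members that could be tested. It read 3.88, 5.08 and 4.86 at 0 Gy, 4.44 and 5.26 on arrays 2 and 3 of 0.5 Gy, and 4.08 and 4.02 on arrays 2 and 3 of 1 Gy, and it lay at the floor on both arrays of high background. Of its 2 probes, 1 was detected on no array. The remaining detected members were seen too rarely to test. miR-466f-3p was detected on 2 arrays of 0 Gy and 1 array each of 0.5 and 1 Gy, at 3.68 to 4.48, and miR-466i-3p on 1 array of 0 Gy at 3.75.

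**Figure D2:**
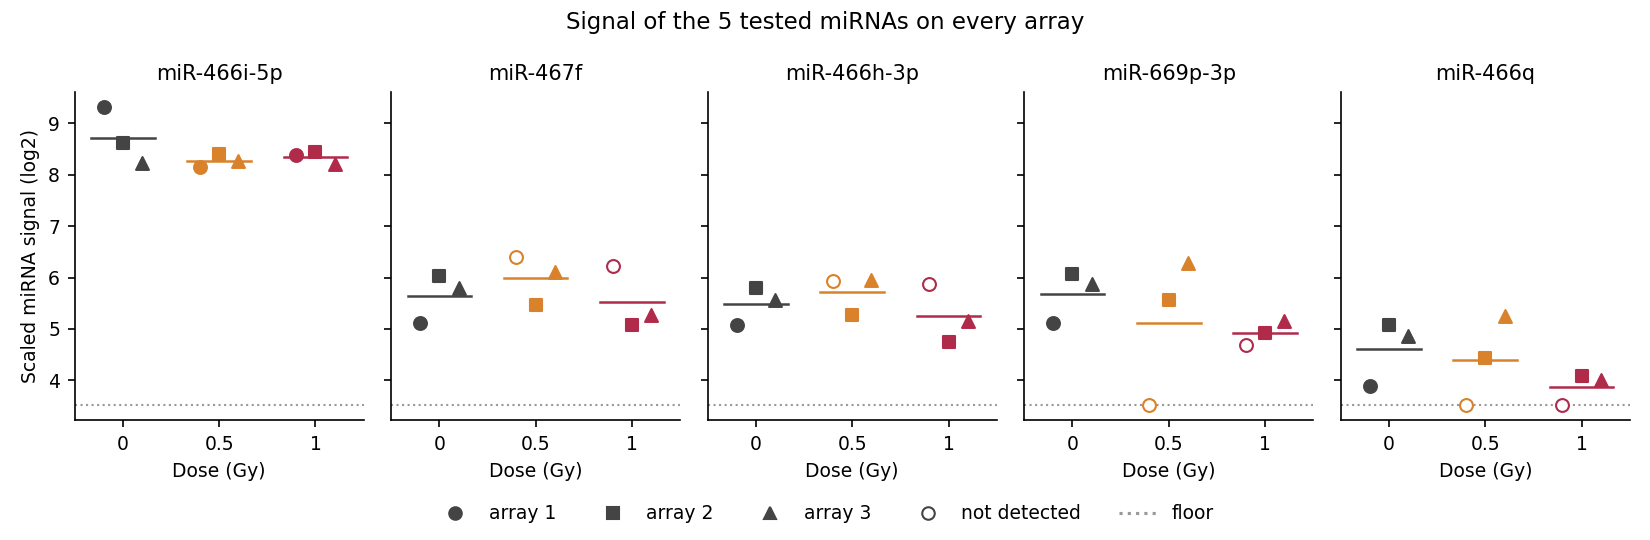
Scaled signal (log2) of miR-466i-5p, miR-467f, miR-466h-3p, miR-669p-3p and miR-466q on each of the 9 arrays, by dose. Filled symbols were detected and open ones not; horizontal lines are means of 3 arrays and the dotted line is the floor of 3.52. Apart from miR-466i-5p, the open symbols are those of array 1 of 0.5 and 1 Gy.

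In all, 5 members were detected on every array of low background, and 4 of these on neither array of high background. Over the whole array 106 miRNAs (5.64%) were detected on all 7 arrays of low background, and 67 of them (63.2%) were detected on neither of the other 2. The 5 members entered the tests because they were detected on all arrays of 1 or more doses, as were 134 miRNAs (7.12%). miR-467f, miR-466h-3p, miR-669p-3p and miR-466q did so through 0 Gy alone, as did 94 of the 134. Each irradiated group holds 1 array of high background, and these 4 members were undetected on those arrays only, as were 67 miRNAs in all. The rest of the 94 were also undetected on an irradiated array of low background. A miRNA kept for its detection at 0 Gy can more easily read lower than higher elsewhere, so the counts of lower members below are descriptions only. The part of the high background in them was not tested beyond the fit without those 2 arrays.

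The first comparison asked which members differed between 0.5 and 0 Gy. miR-467f and miR-466h-3p had higher means at 0.5 Gy and miR-466q, miR-466i-5p and miR-669p-3p lower ones, and none passed the test. miR-466i-5p stood at 8.28 ± 0.12 against 8.72 ± 0.56 at 0 Gy (mean log2 ± SD, n = 3), a difference of -0.45 with a 95% interval of -1.39 to 0.497 (limma adjusted p = 0.561). It was -0.15 without array 1 of 0 Gy, -1.71 with scaling on all probes and -1.23 with quantile normalization. The 75th percentile over all probes was 34.7 and 13.2 on array 1 of 0.5 and 1 Gy, and 1.00 to 4.86 on the other arrays. Scaling on all probes therefore lowers those 2 arrays of high background the most. miR-467f stood at 6.00 ± 0.48 against 5.65 ± 0.48, and miR-466h-3p at 5.71 ± 0.39 against 5.48 ± 0.36. Their differences were 0.35 (limma adjusted p = 0.687) and 0.24 (limma adjusted p = 0.763). miR-669p-3p and miR-466q differed by -0.57 and -0.20 (limma adjusted p = 0.664 and 0.818). The median difference of the 5 members was -0.20, against -0.47 for all 134 tested miRNAs, of which 71.6% were lower. Leaving out 1 array at a time moved the members' median from -0.44 to 0.084 and that of all tested miRNAs from -0.63 to -0.050, both with the high end where array 1 of 0.5 Gy was left out.

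With limma, 0 of 134 miRNAs (0%) and 0 of the 5 members passed an adjusted p of 0.05, and 2 miRNAs (1.49%), none of them a member, had an unadjusted p under 0.05. The 0.5 Gy arrays lay wholly below the 0 Gy arrays for 4 miRNAs (2.99%), again with no member. Without the 2 arrays of high background, the differences of miR-669p-3p and miR-466q turned to 0.47 and 0.48, and the median of the 5 members to 0.39. The median of all 179 miRNAs then tested was 0.27, with 31.8% lower, and 0 of these passed in limma. There miR-467f and miR-466h-3p differed by 0.39 and 0.37, and miR-466i-5p by -0.15. The values of miR-467f and miR-466h-3p over 9 arrays include the undetected readings of array 1 of 0.5 Gy; without that array alone they were 0.084 and 0.067, and without array 1 of 0 Gy alone 0.082 and 0.036. Scaling on all probes turned miR-467f to -0.51 and miR-466h-3p to -0.46, and quantile normalization turned them to -0.56 and -0.49.

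The second comparison set 1 against 0 Gy. All 5 tested members had lower means at 1 Gy, as had 74.6% of the tested miRNAs, and none passed. miR-466i-5p stood at 8.35 ± 0.13 and differed by -0.37 from 0 Gy, with a 95% interval of -1.32 to 0.569 (limma adjusted p = 0.607). It was -0.075 without array 1 of 0 Gy and -1.62 with scaling on all probes. miR-669p-3p stood at 4.93 ± 0.23 against 5.68 ± 0.51, a difference of -0.76, and miR-466q at 3.87 ± 0.31 against 4.61 ± 0.64, a difference of -0.73 (limma adjusted p = 0.541 and 0.539). miR-466h-3p and miR-467f differed by -0.22 and -0.13 (limma adjusted p = 0.786 and 0.892). The 5 members had a median difference of -0.37, against -0.49 for all tested miRNAs. With 1 array left out at a time these medians ran from -0.61 to -0.30 and from -0.63 to -0.064.

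No miRNA of the 134 (0%) passed in limma. Unadjusted p-values under 0.05 were found for 4 miRNAs (2.99%), none of them a member. The 1 Gy arrays lay wholly below the 0 Gy arrays for 10 of the 134 miRNAs (7.46%) and wholly above for 3 (2.24%), with 0 members in either set. Without the arrays of high background the 5 differences ran from -0.49 for miR-669p-3p to -0.24 for miR-466i-5p, still with none past the test, while the median of all miRNAs was 0.13 and 43.6% were lower. Within the slide that holds 6 arrays, numbers 1 and 3 of each dose, miR-467f turned to 0.29 and miR-466h-3p to 0.19. The 1 Gy arrays there include the one of high background, where neither miRNA was detected. The 0 Gy arrays serve in this comparison and the one before, so the values of the members share them.

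The third comparison set 1 against 0.5 Gy. miR-466i-5p differed by 0.072, with a 95% interval of -0.872 to 1.02, and the other 4 members were lower at 1 Gy. miR-466q differed by -0.53, miR-467f by -0.48, miR-466h-3p by -0.46 and miR-669p-3p by -0.19 (limma adjusted p = 0.999 for each). Same-numbered arrays of these doses deviated together, for reasons that were not tested, so each pair is given too. The difference within numbers 1, 2 and 3 was -0.18, -0.39 and -0.85 for miR-467f and -0.062, -0.52 and -0.80 for miR-466h-3p, lower at 1 Gy in 3 of 3 pairs, where pair 1 is undetected on both arrays. miR-466i-5p, by contrast, was higher in 2 pairs, at 0.24 and 0.045, and lower in 1, at -0.064. miR-669p-3p differed by 1.18, -0.63 and -1.13, where the 1.18 of number 1 sets an undetected 4.69 at 1 Gy against the floor at 0.5 Gy. miR-466q, at the floor on both arrays of number 1, differed by -0.35 and -1.24 within numbers 2 and 3. A limma fit of these 6 arrays with the number as a block gave an adjusted p of 0.84 for miR-467f, miR-466h-3p and miR-466q and 0.985 for miR-669p-3p and miR-466i-5p. The limma fit over all arrays called 0 of 134 miRNAs (0%), and 0 had an unadjusted p under 0.05. Lower means at 1 Gy were found for 56% of the tested miRNAs. The 1 Gy arrays lay wholly above those of 0.5 Gy for 1 miRNA (0.746%), which is no member. The median of the 5 members was -0.46, against -0.035 for all tested miRNAs. Without array 1 of 0.5 Gy these medians were -0.48 and -0.46. With 1 array left out at a time the members' median ran from -0.51 to -0.11 and that of all tested miRNAs from -0.46 to 0.33. On the arrays of low background, 2 per irradiated dose, miR-669p-3p differed by -0.96, miR-466q by -0.88, miR-466h-3p by -0.74, miR-467f by -0.71 and miR-466i-5p by -0.094 (limma adjusted p = 0.992 for each). In this setting 69.3% of all miRNAs were lower and their median was -0.18.

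**Figure D3:**
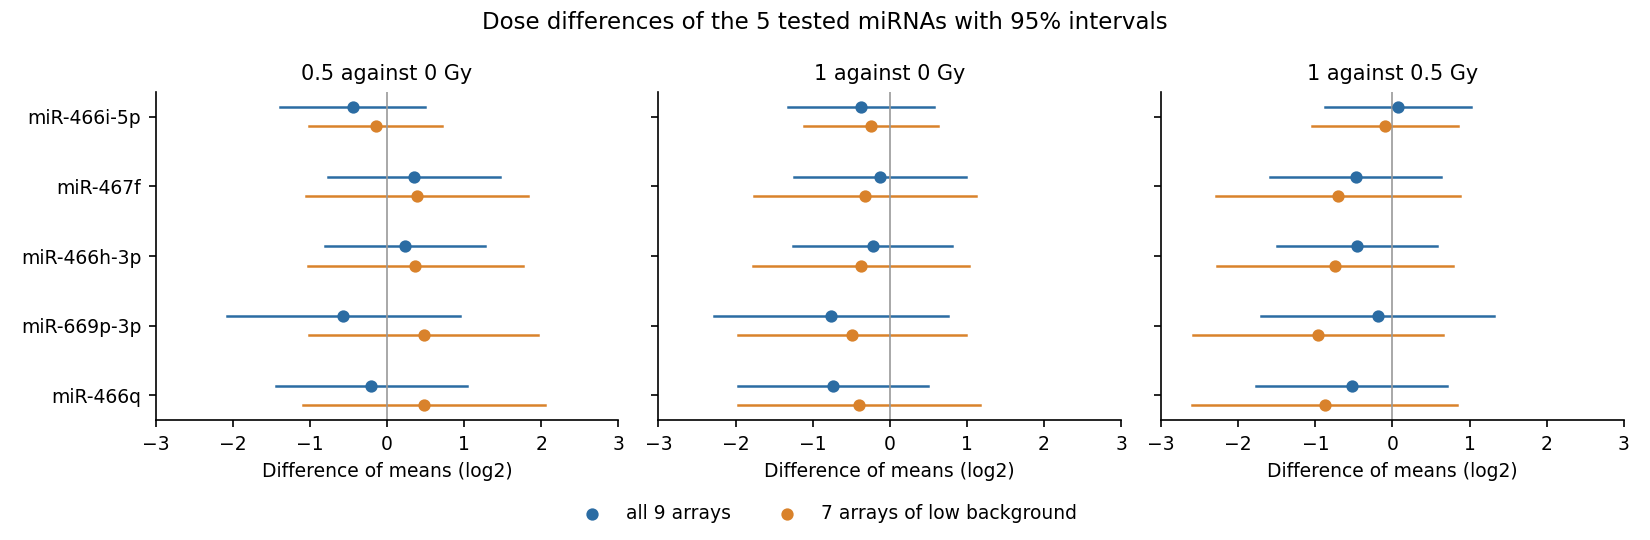
Difference of mean log2 signal for the 5 tested members in the 3 dose comparisons, with 95% intervals, over all 9 arrays (blue) and over the 7 arrays of low background (orange). Each interval includes 0, and miR-669p-3p and miR-466q changed sides between the fits at 0.5 against 0 Gy.

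Across the 7 arrays of low background the members did not vary as one group, and miR-466i-5p stood most apart on array 1 of 0 Gy. miR-467f, miR-466h-3p and miR-669p-3p placed the 7 arrays in the same order, with array 3 of 0.5 Gy highest, then arrays 2 and 3 of 0 Gy, array 2 of 0.5 Gy, array 3 of 1 Gy, array 1 of 0 Gy and array 2 of 1 Gy. miR-466q and the dimmer miR-466f-3p kept arrays 2 and 3 of 0 Gy and array 3 of 0.5 Gy as their highest 3. miR-466i-5p differed from them, with array 1 of 0 Gy highest. The order of the arrays depends on the scaling: with none, array 1 of 0 Gy was the highest for miR-467f, miR-466h-3p and miR-466i-5p alike.

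Differences between 2 miRNAs on the same array do not depend on a scaling factor. The log2 difference of miR-467f and miR-466h-3p ran from 0.035 to 0.33 over the 7 arrays, a range of 1.23-fold. The same range was 1.24-fold for miR-467f with miR-669p-3p and 1.31-fold with miR-466q. Between miR-467f and miR-466i-5p it was 4.17-fold, widest on array 1 of 0 Gy and narrowest on array 3 of 0.5 Gy. A ratio of this kind shows unequal change and does not tell which miRNA changed.

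The array order of miR-466i-5p was closer to that of the UG-repeat miRNAs of other families shown above. miR-574-5p read 8.62, 7.57 and 7.09 at 0 Gy, 7.26 and 7.17 on arrays 2 and 3 of 0.5 Gy, and 7.07 and 7.02 on arrays 2 and 3 of 1 Gy, again highest on array 1 of 0 Gy. Its difference from miR-466i-5p ranged 1.59-fold over these arrays, that of miR-1187 1.34-fold and that of miR-3082-5p 1.23-fold. In the 10 pairs among miR-467f, miR-466h-3p, miR-669p-3p, miR-466q and miR-466f-3p the range was 1.23-fold to 1.62-fold. It was 1.23-fold to 1.81-fold in the 6 pairs among miR-466i-5p, miR-574-5p, miR-1187 and miR-3082-5p, and 2.91-fold to 7.05-fold in the 20 pairs between the sets. In each of these 20 pairs array 1 of 0 Gy gave the lowest difference, so that array widened every range between the sets. For miR-467f with miR-466i-5p the log2 difference was -4.21 there and -3.37 to -2.15 on the other arrays. For miR-466f-3p with miR-574-5p it was -5.10 there and -3.46 to -2.69 on the others. Among all 5565 pairs of the 106 miRNAs detected on all 7 arrays the median was 5.49-fold, and 3.52% were at or under 1.62-fold. Both sets were put together after their values were seen, so this is a description with no test, and miR-466f-3p and miR-1187 were detected on 4 and 6 arrays only. The part of shared probe binding in it was not tested.

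**Figure D4:**
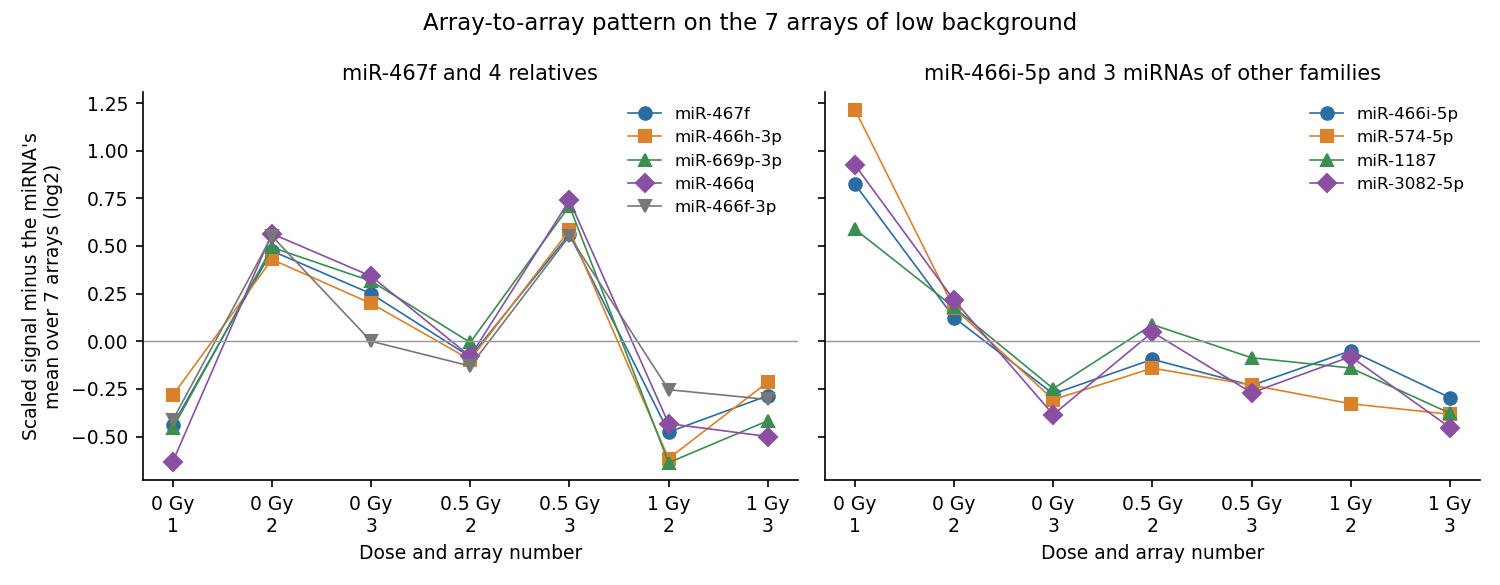
Scaled signal (log2) minus the miRNA's own mean, on the 7 arrays of low background, for miR-467f and 4 other members (left) and for miR-466i-5p with miR-574-5p, miR-1187 and miR-3082-5p (right). Lines only join the points of 1 miRNA; array 1 of 0 Gy is low on the left and the highest point on the right.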

How the data were processed

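The data are deposited spot intensity values, 1 scanner file per array, from Agilent Feature Extraction 11.5.1.1. This software, per the file headers, had subtracted a background and detrended the processed intensity; no scaling between arrays is recorded there. The marks for spots above background and outlier spots, other 0 or 1 values, are the authors' scanner output too. Another 9 value columns, in a whole-series table, were not used here because their names match no sample title.

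Control and outlier spots were left out; none was saturated. Spots were averaged per probe. Arrays were scaled to a common 75th percentile of the 45 probes that all 9 arrays detected. Probes were summed per miRNA, raised to a floor of 11.46 scaled units (the 1st percentile of detected values, 3.52 as log2) and taken to log2. Doses were compared with lmFit and eBayes (limma 3.58.1, R 4.3.3; two-sided) over all 9 arrays, with Benjamini-Hochberg adjustment over 134 miRNAs, those that every array of 1 or more doses detected. The fit was run on simulated data with larger differences than those of the members and a spread capped at its median. Its power at the members' differences was therefore not examined. Members and lists were chosen with earlier results of these data known. The text names the members detected on any array, and the repeat-bearing miRNAs of other families that were detected. The headers name build mm9 and the RefSeq tables GRCm38.p6, so only chromosomes and gene order are given. The number of arrays limits the precision.

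Alternatives changed the scaling, background correction (normexp, run on the median spot intensity), probe summary, filter, detection call, floor, slide, replicate number, variance model and arrays used. Deviations of same-numbered arrays from their dose means correlated at 0.837, 0.749 and 0.587 between 0.5 and 1 Gy. They correlated at -0.128 to 0.158 between 0 Gy and the others. Number 1 is the array of high background at both 0.5 and 1 Gy, and their number 2 arrays lie together on a slide of 2. The correlations therefore cannot show that the numbers pair cultures. A fit of the 6 arrays compared, with the number as a block, was added after seeing the data.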

Additional observations from a re-analysis of the deposited data

How the results depend on the processing

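No alternative called a member or any other miRNA in any comparison (0 past an adjusted p of 0.05 in limma; 0 to 14, 0 to 19 and 0 to 10 miRNAs with an unadjusted p under 0.05 at 0.5 against 0, 1 against 0 and 1 against 0.5 Gy). Directions of the members were not stable, and apart from the arrays or miRNAs an alternative leaves out, the cause was not tested. All values are log2 differences.

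At 0.5 against 0 Gy, scaling over all probes, quantile normalization, no scaling and total gene signal turned miR-467f to -0.51, -0.56, -0.084 and -0.85 and miR-466h-3p to -0.46, -0.49, -0.20 and -0.80. The median of all tested miRNAs was then -0.66, -0.53, -0.84 and -0.80, against -0.47 as reported. normexp turned miR-466q to 0.52, miR-669p-3p to 0.51 and the members' median to 0.52, and leaving out both arrays of high background turned them to 0.48, 0.47 and 0.39. miR-466q was 0.032 within the slide of 6 arrays, and without a detection filter the median was 0.24 over 13 members.

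At 1 against 0 Gy, normexp turned miR-467f to 0.20, miR-466q to 0.19, miR-669p-3p to 0.18, miR-466h-3p to 0.19 and the members' median to 0.19. miR-467f was 0.31 with the slide as a block, 0.29 within the slide of 6 arrays and 0.050 where all spots of a probe had to be above background, and miR-466h-3p was 0.17 and 0.19 in the first 2 of these. The members' median was -1.34 with scaling over all probes and -0.93 with total gene signal.

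At 1 against 0.5 Gy, miR-466i-5p was -0.045 with normexp and -0.094 without both arrays of high background, and miR-467f was 0.57 with total gene signal. A floor of 1 scaled unit gave 0.55 for miR-466q, 0.98 for miR-669p-3p and 0.072 for the members' median. The median was also 0.072 where detection on all 9 arrays left 1 member. miR-669p-3p was 0.048 with the gene detection mark of the scanner software and 0.011 within the slide of 6 arrays. That mark gave 2 members on array 1 of 1 Gy in place of 1.

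Leaving out 1 array at a time moved miR-466q from -0.63 to 0.18 and miR-669p-3p from -1.14 to 0.17 at 0.5 against 0 Gy, with the low ends where array 3 and the high ends where array 1 of 0.5 Gy was left out. At 1 against 0 Gy it moved miR-467f from -0.49 to 0.097 and miR-466h-3p from -0.54 to 0.030, the low ends with array 1 and the high ends with array 2 of 1 Gy left out. At 1 against 0.5 Gy it moved miR-466i-5p from -0.11 to 0.14 and miR-669p-3p from -1.12 to 0.38, in both cases with the low end where array 1 of 0.5 Gy was left out. The members that kept their direction moved too. At 0.5 against 0 Gy miR-467f ran from 0.082 to 0.61, miR-466h-3p from 0.036 to 0.46 and miR-466i-5p from -0.70 to -0.15. At 1 against 0 Gy miR-466i-5p ran from -0.62 to -0.075, miR-466q from -1.10 to -0.49 and miR-669p-3p from -1.05 to -0.57. At 1 against 0.5 Gy miR-467f ran from -0.81 to -0.25, miR-466h-3p from -0.75 to -0.21 and miR-466q from -1.15 to -0.11. With the replicate block the members' medians stayed at -0.20, -0.37 and -0.46, and 0 miRNAs were called. The block changed no other call either, also in the fit of 6 arrays, where 10 of 134 miRNAs had an unadjusted p under 0.05 at 1 against 0.5 Gy and 0 were called.

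Signal over background limits the dim members. On both arrays of high background every member but miR-466i-5p lacked a detected value.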
